A study of Drosophila melanogaster with 6 samples.

Results

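Isolated BEAF-32 peaks are binding sites with no other called site nearby. A peak of the wing disc list was taken as isolated when its midpoint lay more than 20 kb from the midpoints of both the previous and the next peak on its chromosome arm. The members were thus selected on measured peak positions, and 620 of the 2609 deposited peaks met the rule. The rule was applied to X and to both arms of chromosomes 2 and 3, which carried 2570 peaks, so 24.1% of these were isolated (Wilson 95% interval 22.5 to 25.8%, counting error only) and 1950 were not. The 39 peaks on chromosome 4 and on unplaced or Het sequences were left out. The first and last peak of each arm, 10 in all, cannot be isolated by the rule and were counted among the other peaks, although 9 of them lay more than 20 kb from their single neighbour.

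The material was wing imaginal discs of wandering larvae of the third instar of Drosophila melanogaster, wild-type strain Oregon R (Orgon R in the labels). No treatment or mutant was compared. Per the labels' protocols, a sample pooled 200 discs, so a peak is an average over all cell types of the disc. Chromatin was fixed for 10 min in 1% formaldehyde, and 4 libraries were made with an antibody against the BEAF-32B isoform, beside 2 of input chromatin. The authors gave 1 peak list for the series, with no column per library, no score and no read depth. The spread between libraries, the input background and the sequencing depth behind a peak were therefore not measured here, and it is not known whether the 4 ChIP libraries came from separate disc collections.

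BEAF-32 (boundary element-associated factor) is an insulator protein found in flies. It exists as isoforms A and B with different DNA-binding domains, the B form recognising clustered CGATA motifs, and it works with partner proteins such as CP190 and Chromator. In Drosophila cells it is known to bind mostly near the start sites of housekeeping genes, often between closely spaced or divergently transcribed genes, and at many borders between topological domains. Which gene, border or motif lies at an isolated peak was not analysed here, because no genome sequence or annotation of the list's coordinates was used. The chromosome names of the list are those of Release 5 of the fly assembly, and the build itself is not given in the sources used here. Coordinates below are in the list's own build, with 1 added to each start so that the first base of a peak is counted from 1.

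The distances that chose the members are given first, as a description without tests. The nearer neighbour of an isolated peak lay 38.4 kb away at the median, with quartiles of 26.4 and 66.3 kb and a range of 20.01 to 336 kb. The farther neighbour lay 106 kb away at the median, with quartiles of 61.3 and 171 kb and a maximum of 837 kb. Most isolated peaks were thus not centred in their empty stretch, and the longer distance was 2.05 times the shorter at the median. The longer side was the left in 318 of 620 members. Only part of the group was far from everything: 221 members (35.6%) had more than 50 kb on both sides, and 68 (10.97%) had more than 100 kb.

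**Figure D1:**
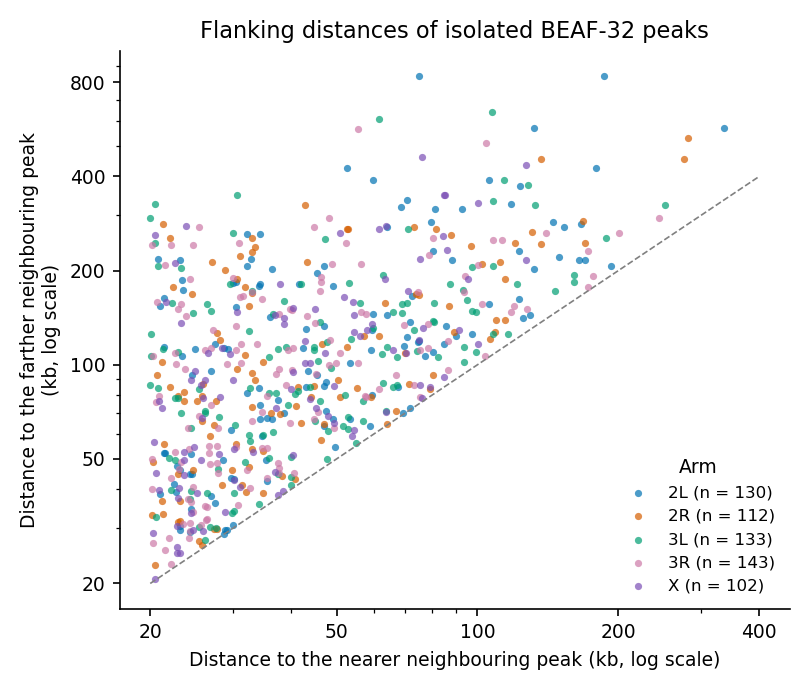
Distance from each of the 620 isolated peaks to its nearer (x) and farther (y) neighbouring peak, in kb on log axes. Each point is 1 peak, coloured by arm, and the dashed line marks equal distances. Points crowd near the 20 kb limit of the rule, and the farthest-lying point to the right is a 2L peak with 336 and 572 kb.

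The most isolated peak of the list was chr2L:4050597-4051069, 473 bp wide, with its neighbours 572 kb to the left and 336 kb to the right (midpoint to midpoint). The second was chr2R:15614240-15615066, 827 bp wide, with 281 and 530 kb, and the third was chr2R:1264623-1265297, 675 bp wide, with 453 and 276 kb near the centromere end of the arm. On 3L the most isolated peak was chr3L:10355830-10356171, only 342 bp wide, with 324 and 252 kb. On 3R it was chr3R:24460554-24461231, 678 bp wide, with 295 and 245 kb, and chr3R:22286884-22287474, of 591 bp, followed with 200 and 264 kb. The 10 peaks with the longest distance to a neighbour were between 342 and 827 bp wide, where the quartiles of all members were 471.75 and 761 bp.

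The other 4 of these 10 were on 2L and 3L. Peak chr2L:5531632-5532298 (667 bp) had 206 and 193 kb, and chr3L:2823396-2823905 (510 bp) had 188 and 254 kb. Peak chr2L:9572030-9572674 (645 bp) closed the longest empty stretch beside any isolated peak, with 837 kb on its left and 187 kb on its right. Peak chr2L:17963109-17963662 (554 bp) had 427 and 179 kb. None of the 10 was on X, where the most isolated peak, chrX:4434508-4435281 (774 bp), had 216 and 127 kb.

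At the limit of the rule, the peaks just inside were chr3L:1947641-1948312 and chr3L:1967722-1968249, neighbours at 20009 bp, and chr3L:6048028-6048573, 20085.5 bp from its nearer neighbour. Just outside were chr2R:2519725-2520581, with 19796 bp on one side and 131 kb on the other, and the neighbours chr3R:9837574-9838200 and chr3R:9857402-9857952, 19790 bp apart. Nothing in the distances sets these 2 groups apart. The group is the far end of a continuous distribution, and 861 peaks, first and last peaks not counted, had both neighbours within 20 kb.

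The share of isolated peaks was highest on the arm with the widest median spacing and lowest on the arm with the tightest. The rule itself uses these spacings, so this order is a description only. Arm 2L, where neighbouring midpoints were 24.4 kb apart at the median, had 130 isolated peaks of 383, or 33.9% (Wilson 95% interval 29.4 to 38.8%). X, with a median spacing of 11.6 kb, had 102 of 577, or 17.7% (14.8 to 21%). The other arms lay between, with 133 of 504 on 3L (26.4%, 22.7 to 30.4%), 143 of 607 on 3R (23.6%, 20.4 to 27.1%) and 112 of 499 on 2R (22.4%, 19.0 to 26.3%). The intervals of 3L, 3R and 2R overlapped each other. That of 2L also overlapped the one of 3L, and that of X overlapped those of 2R and 3R. The intervals of 2L and X did not overlap. The intervals cover counting only and take peaks as independent, so their overlap is not a test between arms.

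Counted per length of arm, the isolated peaks were spread more evenly than all peaks. They numbered 5.78 per Mb on 3L, 5.70 on 2L, 5.45 on 2R, 5.15 on 3R and 4.599 on X, where all peaks together ranged from 16.8 per Mb on 2L to 26.0 on X (density between the outermost peaks). X, the arm with most peaks per Mb, had the fewest isolated peaks per Mb. The intervals between peaks that adjoined an isolated peak added up to 84.5 Mb of 116 Mb, or 72.6% of the span of the arms. That share was 81.8% on 2L, 79.8% on 3L, 75.2% on 2R, 67.2% on 3R and 60.03% on X. The rule limits how many isolated peaks fit in a given length and picks peaks with long intervals on both sides. These densities and shares are therefore descriptions only.

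Distance to the nearer neighbour among members also varied by arm. Its median was 44.4 kb on 2L, 42.0 kb on 3L, 38.5 kb on X, 34.7 kb on 3R and 34.1 kb on 2R. Members with more than 100 kb on both sides numbered 20 on 2L (15.4% of its members), 15 on 2R (13.4%), 15 on 3R (10.5%), 14 on 3L (10.5%) and 4 on X (3.92%). Members with more than 50 kb on both sides made up 41.5% on 2L, 40.6% on 3L, 34.8% on 2R, 34.3% on X and 27.3% on 3R. X thus had the smallest share beyond 100 kb but not beyond 50 kb.

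In 1-Mb windows, isolated peaks were found almost everywhere. The 114 windows that lay wholly before the last peak's window held 5.28 ± 2.36 isolated peaks (SD over windows), with a median of 5 and a highest count of 12. The variance was 1.06 times the mean for isolated peaks and 4.78 times the mean for all peaks, of which a window held 22.1 ± 10.3. Windows with 10 peaks or fewer had 4.27 ± 1.98 isolated peaks (15 windows), and windows with more than 30 peaks had 5.10 ± 2.13 (20 windows). Windows with 11 to 20 peaks had 4.53 ± 1.97 (32 windows) and those with 21 to 30 peaks 6.19 ± 2.54 (47 windows). The share of peaks that were isolated went from 61.5% in the sparsest class to 13.4% in the densest. The rule itself limits how many isolated peaks fit in a window, so this evenness is a description only.

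**Figure D2:**
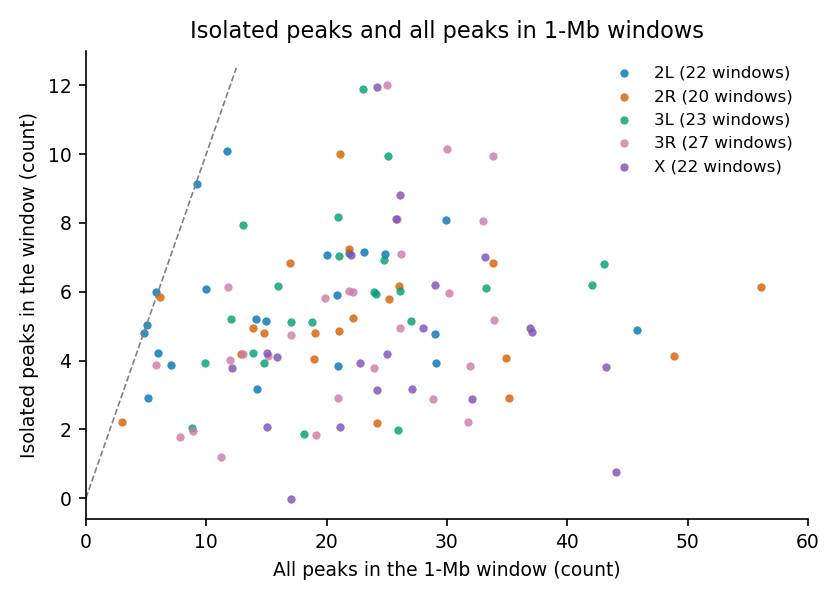
Isolated peaks (y) against all peaks (x) in each of 114 full 1-Mb windows, coloured by arm, with points shifted slightly so that they do not cover each other. On the dashed line every peak of the window is isolated. Counts of isolated peaks stay between 0 and 12 while all peaks go from 3 to 56.

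The windows richest in isolated peaks held 12 each: chr3L:21000001-22000000 (12 of 23 peaks), chr3R:1000001-2000000 (12 of 25) and chrX:1000001-2000000 (12 of 24). Another 5 windows held 10 each. Among these, chr2L:20000001-21000000 had 10 of 12 peaks isolated, and chr3R:19000001-20000000 had 10 of 34. In 5 windows every peak was isolated. The largest of these was chr2L:15000001-16000000 with 9 peaks, followed by chr2L:4000001-5000000 and chr2R:1000001-2000000 with 6 each, and chr2L:3000001-4000000 and chr2L:9000001-10000000 with 5 each. Of the 5 windows, 4 were on 2L.

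A single full window had no isolated peak. It was chrX:21000001-22000000, at the centromere end of X, with 17 peaks. The dense window chrX:19000001-20000000 had 1 isolated peak among 44. In the 2 Mb nearest the centromere, counted from the outermost peak, 2 of 37 peaks on X were isolated (5.41%). The same end held 10 of 17 on 2R (58.8%), 18 of 45 on 3R (40%), 10 of 26 on 3L (38.5%) and 8 of 23 on 2L (34.8%). In a comparison of the ends X was the exception: on the other 4 arms the share at this end was above that at the telomere end, which was 30.6% on 2R, 15.4% on 3R, 27.6% on 3L and 17.4% on 2L. Between the ends the share was 37.8% on 2L, above that of its centromere end. It was 25.5% on 3L, 22.8% on 3R, 20.1% on 2R and 17.2% on X. The centromere ends held only 17 to 45 peaks each, and these shares were not tested. At the telomere end of X, 14 of 41 peaks were isolated (34.1%).

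The order of isolated and other peaks along the arms is given as a description, since the rule bears on it: the neighbour of an isolated peak is already beyond 20 kb on 1 side. In 303 runs of consecutive isolated peaks, 155 members (25%) were alone between other peaks, 154 (24.8%) formed pairs and 311 (50.2%) stood in 71 runs of 3 or more. The longest run was chr2L:2987251-4892290, 12 peaks over 1.91 Mb with a median width of 608 bp, and it contains the most isolated peak of the list. Its peaks lay 36.4 to 572 kb apart. The next was chr2L:14511843-15977022, 11 peaks over 1.47 Mb with a median width of 471 bp. Runs of 8 were chr2R:675020-1923521 (1.25 Mb, median width 702 bp) and chr3R:1474106-1970108 (0.496 Mb, 683.5 bp). Runs of 7 were chr2L:8660320-9966819 (1.31 Mb, 645 bp) and chr3L:8791731-9342961 (0.551 Mb, 545 bp).

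For 310 of the 620 members (50%), the nearest neighbour was itself isolated, a count that the rule affects in the same way. This share was 66.2% on 2L and 42.2% on X. Of the 310 nearest neighbours that were not isolated, 135 (43.5%) had a further peak within 5 kb. Of all 2570 peaks 44.2% had another within 5 kb, and of the peaks that are not isolated 58.3%. The rule lowers the 43.5%, because such a neighbour has no peak within 20 kb on the side of the member. The shares of 44.2% and 58.3% count both sides, so no difference is read from them.

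Beyond the 20 kb that the rule cleared, isolated peaks still had fewer peaks nearby at short range. At 20 to 50 kb they had 1.49 ± 1.72 other peaks (SD over peaks) and the remaining peaks had 2.13 ± 1.98, a ratio of 0.70. The ratio was 0.90 at 50 to 100 kb and 0.97 at 100 to 250 kb, where the means were 7.003 and 7.25. The arms differed. At 20 to 50 kb the ratio was 0.52 on 3L, 0.60 on 2L, 0.68 on 2R, 0.83 on X and 0.94 on 3R. At 20 to 100 kb it was 0.61 on 2L, 0.72 on 2R, 0.75 on 3L and 0.91 on X. On 3R it was 1.17 at 20 to 100 kb and 1.40 at 50 to 100 kb. Neighbouring peaks are shared between these counts and the rule fixes part of them, so no test was made.

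Peak width was the measure that the rule did not use. Isolated peaks were narrower than the other peaks at the median, with 604.5 bp (quartiles 471.75 and 761 bp, n = 620) against 677 bp (536 and 866.75 bp, n = 1950). Their range was 279 to 1653 bp, and that of the other peaks 310 to 2442 bp. The distributions overlapped over nearly their whole range. Both tails differed: widths above 1653 bp occurred in other peaks only, and the 2 peaks under 300 bp were both isolated.

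**Figure D3:**
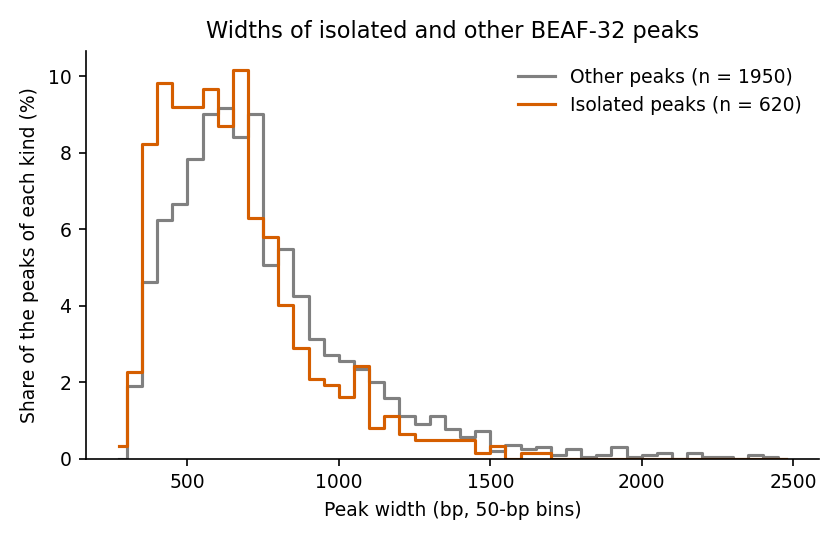
Width of isolated (orange, n = 620) and other peaks (grey, n = 1950) in 50-bp bins, as a percentage of the peaks of each kind. The isolated peaks exceed the others in each bin from 250 to 600 bp and fall below them above 800 bp in nearly all bins. Bins from 600 to 800 bp go both ways.

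By arm, the median width of isolated peaks was 589.5 bp on 2L against 679 bp for the others, a difference of -89.5 bp. It was 602 against 697.5 bp on 3R (-95.5 bp), 570 against 649 bp on X (-79.0 bp) and 605 against 680 bp on 3L (-75.0 bp). On 2R the medians were 668.5 and 673 bp, a difference of -4.5 bp. The isolated peaks were thus narrower at the median by 75 bp or more on 4 arms and nearly equal on 2R. Over the 5 arms the mean difference was -68.7 ± 36.8 bp (SD, n = 5 arms). The difference was negative on 5 of 5 arms. A two-sided exact permutation test of its mean, which flips the sign of the difference in each arm, gave p = 0.0625 (0.0625 after Benjamini-Hochberg adjustment over 2 tests). This is the smallest p that 5 arms allow, so the design could not reach 0.05. The 2R difference was no longer negative under 2 of the 12 alternatives that used 5 arms. These were an isolation distance of 30 kb and a comparison with only those other peaks that had both neighbours within 20 kb. They left 4 of 5 arms lower (exact permutation p = 0.125). The test compares arms of 1 list and does not measure the spread between libraries.

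**Figure D4:**
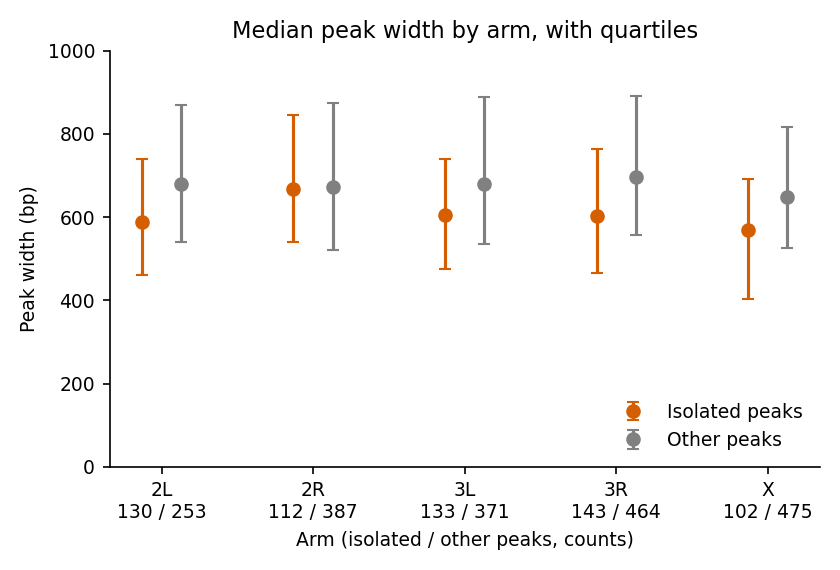
Median width (points) and quartiles (bars) of isolated (orange) and other peaks (grey) on each arm, in bp, with the numbers of peaks under the arm names. The isolated median minus the other median is between -95.5 and -75.0 bp on 2L, 3L, 3R and X, and -4.5 bp on 2R.

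Wide peaks made up a smaller share of the isolated peaks. Peaks above 1000 bp made up 14.7% of all 2570 peaks, and 58 of the 620 isolated peaks (9.35%) against 319 of the others (16.4%). The isolated share was 5.26% on 3L against 18.9% for the others, 6.92% on 2L against 16.6%, 10.5% on 3R against 18.3%, 9.80% on X against 13.1% and 15.2% on 2R against 15.5%. The mean difference was -6.94 ± 5.25 percentage points (SD, n = 5 arms), negative on 5 of 5 arms, with an exact permutation p of 0.0625 (adjusted p = 0.0625), again the smallest possible. On 2R the difference was -0.325 percentage points, and it was no longer negative under 4 of 12 alternatives. These were isolation distances of 25 and 30 kb, and width limits of 800 and 1200 bp (exact permutation p = 0.125).

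Narrow peaks were the counterpart. Widths under 500 bp, a limit chosen after the values were seen, were found in 21.9% of all peaks, in 185 isolated peaks (29.8%) and in 379 others (19.4%). The isolated and other shares were 39.2% and 20.8% on X, 33.1% and 19.0% on 2L, 30.1% and 17.8% on 3L, and 30.1% and 17.2% on 3R. On 2R the order was the opposite, with 17.0% and 22.2%. The narrow share was not tested, and it is a view of the same width distribution as the median and the wide share.

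Width did not follow distance evenly. Peaks with their nearest neighbour at up to 5 kb had a median of 678 bp, those at 5 to 10 kb 681 bp and those at 10 to 20 kb 673 bp. The first class was mixed: its 251 peaks with a neighbour at 1 kb or less had a median of 602 bp, as low as that of isolated peaks, while those at 1 to 2 kb had 704.5 bp (n = 364) and those at 2 to 5 kb 707 bp (n = 522). Since no peaks overlap, the mean width of such a pair cannot exceed the distance between its midpoints. Isolated peaks with the nearest neighbour at 20 to 50 kb had a median of 615 bp (n = 399), and those with more than 50 kb had 595 bp (n = 221). On 3R the medians went from 684 bp at 10 to 20 kb to 653.5 and 562 bp in the last classes, and on 3L from 731.5 to 614 and 586 bp. On X the lower width began earlier, with 589.5 bp at 10 to 20 kb, 566 bp at 20 to 50 kb and 599 bp beyond. On 2L the medians were 620 bp at 5 to 10 kb, 698 bp at 10 to 20 kb, 573.5 bp at 20 to 50 kb and 612.5 bp beyond, with no steady order. On 2R the last 3 classes had 657, 671 and 655 bp. The relation was weak across single peaks: Spearman's rho of width with distance to the nearest neighbour was -0.08 over all 2570 peaks and -0.04 within the 620 isolated ones (Pearson's r -0.10 and -0.06), given as a description because all peaks share 1 list.

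**Figure D5:**
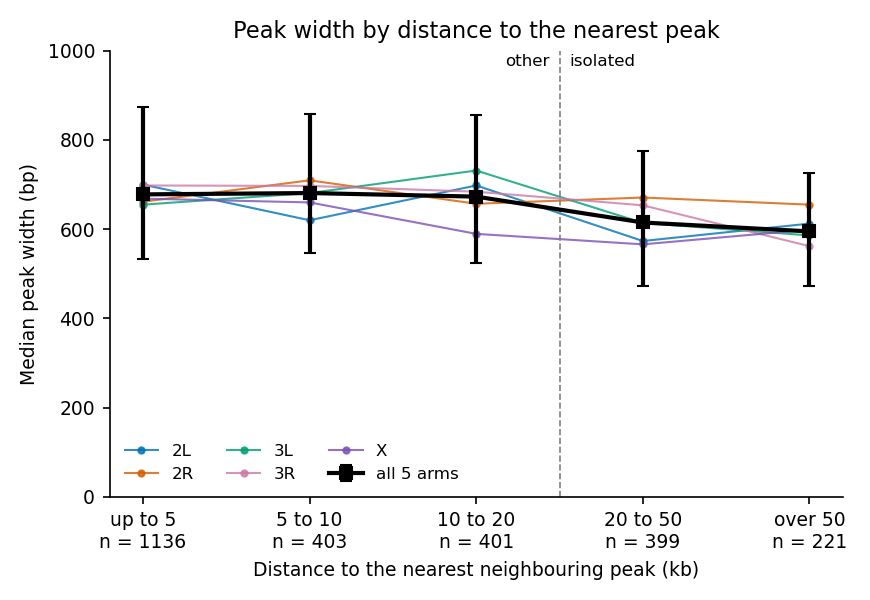
Median peak width in bp by distance to the nearest neighbouring peak in kb, for all 5 arms (black squares with quartile bars) and for each arm (thin lines), with first and last peaks left out. The dashed line is the 20 kb limit. The medians over all arms are 673 to 681 bp on its left and 615 and 595 bp on its right, and the 2R line stays above 650 bp throughout.

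A neighbour on only 1 side went with an intermediate width. Peaks with both neighbours within 20 kb had a median of 686 bp (n = 861), peaks with 1 side beyond 20 kb had 668 bp (n = 1079), and isolated peaks 604.5 bp, first and last peaks not counted. On 2R the isolated median was not lower than that of peaks with both neighbours within 20 kb. Split by the gap between peak edges, the other peaks differed little: those with a gap of 500 bp or less to a neighbour had a median of 678 bp (n = 396), and the remaining other peaks had 677 bp (n = 1554). Among members, those alone between other peaks had 613 bp at the median, those in pairs 579.5 bp and those in runs of 3 or more 614 bp.

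The width difference was also present between peaks of the same region. In windows with 22 peaks or fewer, the median of the 114 windows, isolated peaks had a median of 598.5 bp and other peaks 657 bp. In windows with more peaks the medians were 613.5 and 688 bp. Within single windows that held at least 3 peaks of each kind, the isolated median was the lower in 62 of 91, with a median difference of -71.0 bp. It was the lower in 15 of 18 windows on X, 16 of 21 on 3R, 15 of 20 on 3L and 9 of 15 on 2L. On 2R it was the lower in 7 of 17 windows, with a median difference of 31 bp in the opposite direction.

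Compared with their own nearest neighbour, where that neighbour was not isolated, 178 of 310 members (57.4%) were the narrower of the pair, with a median difference of -51.5 bp. The count was 42 of 66 on 3L, 36 of 59 on X, 50 of 82 on 3R, 22 of 44 on 2L and 28 of 59 on 2R. Pairs on 2L and 2R were thus split about evenly. These comparisons within windows and pairs were added after the widths had been seen and are descriptions.

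The widest isolated peaks were chr2R:13552887-13554539 (1653 bp, with 61.5 and 123 kb to its neighbours), chr3R:17122189-17123805 (1617 bp, 26.8 and 52.4 kb), chr3R:8453185-8454724 (1540 bp, 184 and 46.3 kb) and chr2R:3164665-3166191 (1527 bp, 127 and 109 kb). They were followed by chrX:1816100-1817560 (1461 bp), chrX:828738-830181 (1444 bp), chr2R:11901412-11902846 (1435 bp), chr3R:12105482-12106885 (1404 bp), chrX:18757486-18758882 (1397 bp) and chrX:6547847-6549242 (1396 bp). The 10 widest were on 2R, 3R and X. Among them chr2R:3164665-3166191 was the farthest from any other peak, and chrX:18757486-18758882 lay closest to the limit, with 20.6 and 20.5 kb.

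The narrowest isolated peaks were chr3L:7521344-7521622 (279 bp, 147 and 171 kb to its neighbours) and chr3L:16683247-16683527 (281 bp, 102 and 93.4 kb), which were also the narrowest peaks of the 5 arms. Next came chrX:14216762-14217074 (313 bp, 84.4 and 258 kb), chr2L:17536583-17536899 (317 bp, 52.6 and 427 kb) and chr3L:2560039-2560371 (333 bp, 70.1 and 26.2 kb). The first 4 had more than 50 kb on both sides. Without scores or coverage, the list does not tell whether a narrow isolated peak was a weak one, and the share of members that would be called in each library alone was not tested.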

How the data were processed

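ChIP-seq libraries (4 BEAF-32, 2 input) were processed with Bowtie 0.12.5 by the authors, per the submitters' processing notes. How peaks were called, whether libraries were pooled and the genome build are not stated in the sources used. The deposited list has 3 columns (chromosome, start, end in bp) and 2609 peaks. Depth is unknown.

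Width is end minus start, taking starts as counted from 0. Distances run between midpoints. Intervals are Wilson 95%. Widths and shares above 1000 bp were compared between isolated and other peaks per arm, with a two-sided exact permutation test over the 32 sign patterns of 5 arms, adjusted over 2 tests. Nothing about distances was tested. Steps were tested on simulated data (Python 3.11.15, numpy 2.4.6, pandas 2.3.3, scipy 1.17.1).

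Named peaks are the 10 with the longest distance to their nearest neighbour, the most isolated of each arm, the 10 widest, the 5 narrowest, 3 on each side of the limit, the longest runs and extreme 1-Mb windows. The members, lists and tests were chosen with earlier results of these data known. Sequence and annotation were not analysed here.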

Additional observations from a re-analysis of the deposited data

Results flagged for a closer look

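On arm 2R the median width of isolated peaks differed from that of the other peaks by -4.5 bp, far from the 4 other arms, whose differences were between -95.5 and -75.0 bp. Its gap to the nearest arm was 0.775 of the whole range, above the 95% critical value of 0.71 for 5 values (Dixon's test). The share of peaks under 500 bp set 2R apart as well, with -5.26 percentage points (isolated minus other) against 12.3 to 18.4 on the other arms and a gap of 0.742 of the range. Arms are not samples, both values come from the same widths, and chance flags about 1 in 20 groups. The share above 1000 bp did not set 2R apart (gap of 0.22 of the range). The cause of the 2R values was not tested.

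The 39 peaks outside the 5 large arms were not used above. Of these, 34 were on unplaced or Het sequences. The other 5 were on chromosome 4, and all 3 that were not the first or last there lay more than 20 kb from both neighbours. They were chr4:528730-529476 (747 bp, with 465 and 62.0 kb), chr4:590793-591443 (651 bp, 62.0 and 126 kb) and chr4:717330-717694 (365 bp, 126 and 334 kb).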

How the results depend on the processing

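The width difference was negative under all 18 alternatives tried, between -93.7 and -49.2 bp (main -68.7 bp). It was a mean over arms of differences between medians, except with mean widths per arm (-93.7 bp) and with all peaks pooled (-72.5 bp). The mean difference over arms in the share above 1000 bp was negative under all 17, between -11.8 and -4.34 percentage points (main -6.94). Exact permutation p-values were 0.0625 or 0.125, and no alternative could pass 0.05. With 5 arms, the difference was lower on each arm in 10 of 12 alternatives for width and 8 of 12 for the share, and on each but 2R in the rest. Without 2R the width difference was -84.8 bp. The number of isolated peaks depends on the limit: it was 1021 at 10 kb and 221 at 50 kb, and 416 to 782 under the 13 other alternatives. The number above 1000 bp was 124 at 10 kb, 15 at 50 kb and 98 after merging of peaks within 1000 bp. It was 126 with a limit of 800 bp and 21 with 1200 bp. The share of members above 1000 bp was 14.8% after that merging and 13.1% after merging within 500 bp, since merged peaks are wider. These shares cannot be set against the 14.7% of all unmerged peaks. The mean difference from the other peaks over arms was -11.8 and -11.0 percentage points after these mergings. It was -4.62 at 10 kb, -8.05 at 50 kb, -11.4 with a limit of 800 bp and -4.34 with 1200 bp. Unknown depth and scores limit what a narrow or missing peak means. No library could be left out, and no paired analysis was possible because the list has no column per library.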
